A study of Mus musculus with 2 samples.

Results

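Amino acid transporters, enzymes that make or interconvert amino acids, genes of the ATF4 stress response and the cytosolic aminoacyl-tRNA synthetases were compared between activated and resting CD8+ T cells. The set was given as 43 gene names with roles in amino acid supply and tRNA charging. It was chosen with earlier results of these data known. Every probe set annotated to 1 of these genes alone was used, which covered 41 of the 43 genes among 18193 genes on the array. Intensities of Pycr1 and Dars were not analysed here, while their promoter windows were among those searched below. The activated group was CD8+ T cells that were proliferating 72 h after activation, and the naive group was CD8+ T cells that had not been activated. Both came from pmel-1 mice, which are transgenic for a T cell receptor that recognises a melanocyte protein. The share of cells that carried this receptor was not measured here. The labels state neither the activating stimulus nor the age of the mice. RNA from 4 independent experiments was pooled for each group and hybridised to 1 whole-genome array, so that neither group had replicates. All differences below are therefore descriptions of 2 arrays, with no error and no test, and with 1 array in each group their precision is limited.

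A dividing lymphocyte has to build new protein, and it imports most of the amino acids for it through carriers in the plasma membrane. Slc7a5 (LAT1) and Slc3a2 form a heterodimer that exchanges glutamine for leucine and other large neutral amino acids, and T cells are known to raise it on activation. Inside the cell, Phgdh, Psat1 and Psph act in sequence to make serine from a glycolytic intermediate, and Asns makes asparagine from aspartate and glutamine. Each aminoacyl-tRNA synthetase joins 1 amino acid to its tRNAs, with separate enzymes for the cytosol and the mitochondrion in most cases. Uncharged tRNA activates the kinase Gcn2 (gene Eif2ak4), which favours translation of the transcription factor Atf4, and Atf4 in turn binds, with C/EBP partners, at genes for transporters, Asns and synthetases.

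Short promoter stretches are shown first because the members differ in whether they hold the letters TGATGNAA, the core of the composite element bound by ATF4 and C/EBP proteins. RefSeq promoter windows of mouse build GRCm38.p6, which run from 250 bases before to 50 bases after the annotated transcript start, were used for 32 of the 43 genes and were searched on both strands. A match was found in 11 of 32 genes (34.4%), against 1218 of 27024 genes searched (4.51%). The stretches below are given 5′ to 3′ on the strand of the gene, the capitals mark the match, and a match on the opposite strand reads TTNCATCA. The first 4 belong to synthetases that were higher in activated cells. Asns and Got1 are enzymes that were higher as well, while Chac1 and Slc7a11 are shown because they hold the letters and were not.
Gars, chr6:55037960-55037989, plus strand: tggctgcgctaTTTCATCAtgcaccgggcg
Iars, chr13:49682126-49682155, plus strand: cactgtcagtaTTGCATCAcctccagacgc
Tars, chr15:11399655-11399684, minus strand: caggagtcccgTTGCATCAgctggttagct
Yars, chr4:129189895-129189924, plus strand: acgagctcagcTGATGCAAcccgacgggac
Asns, chr6:7693214-7693243, minus strand: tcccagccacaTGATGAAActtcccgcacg
Got1, chr19:43524689-43524718, minus strand: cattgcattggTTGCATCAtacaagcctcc
Chac1, chr2:119351038-119351067, plus strand: cttccctgccgTTGCATCActcctgccagg
Slc7a11, chr3:50443661-50443690, minus strand: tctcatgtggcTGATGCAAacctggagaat
In Got1 the match shown began 102 bases before the transcript start, and in Asns it began 23 bases before it. In Iars and Yars it lay within the first 15 bases of the transcript.

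As a contrast, the 150 bases before the start are shown for Asns, the member with the highest ratio of activated over naive cells, and for Qars, the synthetase with the lowest. Capitals again mark TGATGNAA, and Qars held no match in its window.
Asns, chr6:7693210-7693359, minus strand: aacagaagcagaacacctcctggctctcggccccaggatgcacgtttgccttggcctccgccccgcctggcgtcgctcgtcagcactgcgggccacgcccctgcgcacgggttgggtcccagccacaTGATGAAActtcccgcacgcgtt
Qars, chr9:108507855-108508004, plus strand: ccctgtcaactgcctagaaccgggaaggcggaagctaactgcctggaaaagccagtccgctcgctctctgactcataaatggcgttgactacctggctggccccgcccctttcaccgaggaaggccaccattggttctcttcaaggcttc
These letters describe the windows and do not show that a factor bound there.

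Values are the authors' deposited intensities, in which 1 probe set stands for each gene (the one with the highest mean over both arrays). A gene counted as measured when at least 1 array reached 100, and values under 100 were raised to 100 before a ratio was formed, so that such ratios are lower bounds. A gene passed the size rule when the ratio was at least 1.4-fold in either direction and the gap between the deposited values exceeded 100. In pooled RNA, a change in RNA per cell and a change in the make-up of the cells cannot be told apart. Of the 41 members with a probe set, 39 were measured and 26 of these were higher in activated cells (66.7%), against 23.7% of all 9842 measured genes. None of the 39 was lower, against 20.6% of all measured genes. The median log2 ratio of activated over naive was 0.90 for the measured members and 0.01 for all measured genes. Among the 8109 genes whose brighter value lay in the members' range, 26.9% were higher, with a median of 0.02. Because the members were chosen with earlier results of these data known, these shares describe the set and are not independent support.

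**Figure D1:**
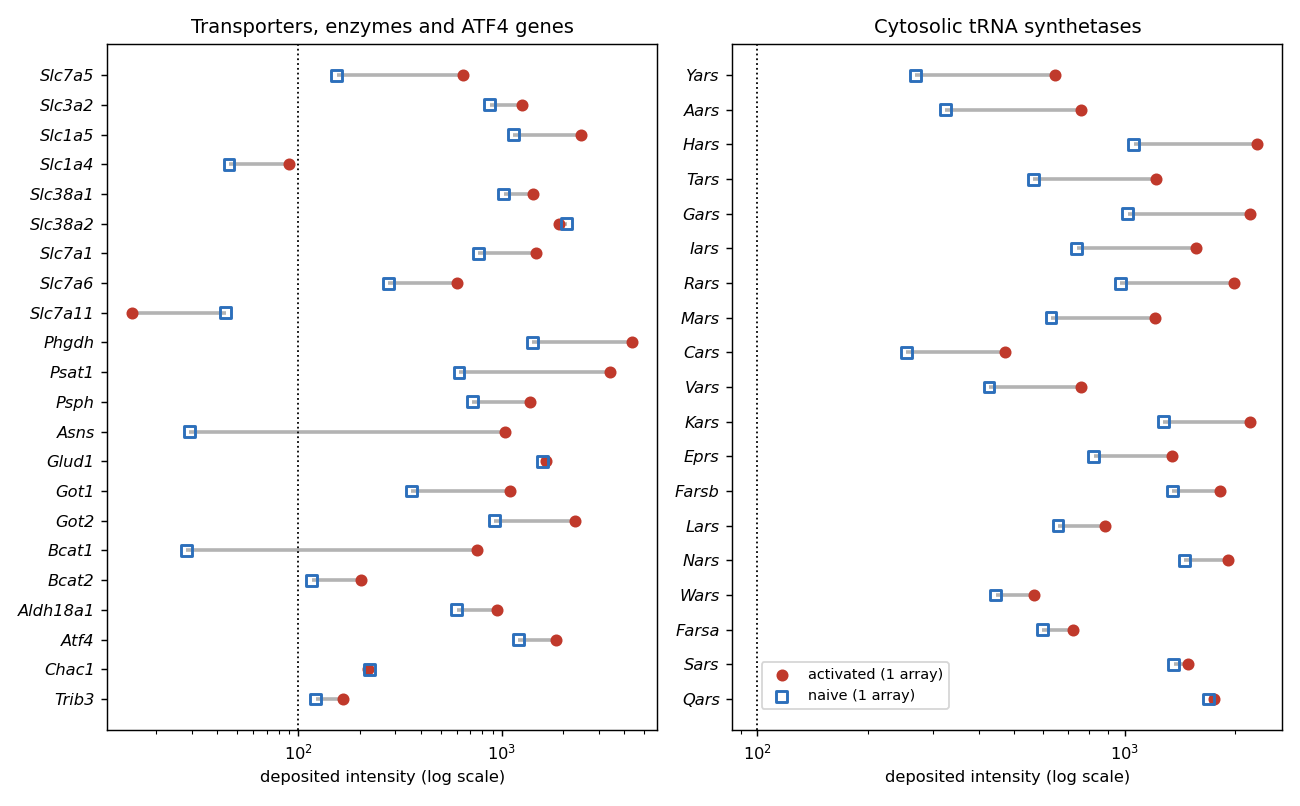
Deposited intensity (log scale) on the activated array (filled circles) and the naive array (open squares) for the 41 members with a probe set, joined by a grey line for each gene. The dotted line marks 100, and the synthetases are ordered by their ratio, from Yars at 2.40-fold to Qars at 1.04-fold.

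The defining genes of CD8+ T cells were bright on both arrays. Cd8a, Cd8b1, Cd3d, Cd3e and Cd3g lay between 2724 and 6597 on the activated array and between 3035 and 7725 on the naive array. By their brightest probe sets, Cd8b1 alone was lower by the size rule (3554 in activated and 7725 in naive cells). The 5 probe sets of Cd8a gave log2 ratios from -1.39 to -0.31, with the brightest at -0.31. Of the 23 markers of other blood cells, 13 were measured, 8 of these were lower in activated cells, against 20.6% of all measured genes, and 1 was higher. The 23 summed to 2241 on the activated array and 16665 on the naive array. The haemoglobin gene Hbb-b2 alone was at 1 on the activated array and 6852 on the naive array by its brightest probe set. Its other probe set gave a log2 ratio of -0.18, and the haemoglobin gene Hba-a1 was under 100 on both arrays (45.9 in activated and 50.9 in naive cells). Jchain, the joining chain of antibodies, was at 45.3 in activated and 1768 in naive cells. The other plasma cell marker, Sdc1, went the other way and was the 1 called higher (301 in activated and 63.5 in naive cells). B cell markers summed to 139 and 623 and class II antigen presentation genes to 790 and 5711 on the activated and naive arrays. None was listed at 0, because the lowest deposited value is 1. The part of these other cells in the differences below was not tested. The 3′ to 5′ signal ratios, a sign of RNA integrity, were 1.11 on the activated array and 1.20 on the naive array for Actb, and 0.86 on the activated array and 0.85 on the naive array for Gapdh.

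Among the amino acid transporters, 5 of 7 measured members were higher in activated cells (71.4%, against 23.7% of all measured genes). None was lower (against 20.6%), and the median log2 ratio was 0.94. Slc7a5, the light chain that carries the substrate, was at 646 on the activated array and 154 on the naive array (4.19-fold higher). Its heavy chain partner Slc3a2, which brings the light chain to the cell surface, was at 1263 and 872 on the activated and naive arrays (1.45-fold higher). The light chain thus differed more than the chain it shares with other carriers, and Slc3a2 stood just past the size rule. After quantile normalization or a loess correction it no longer passed, with a log2 ratio down to 0.46, against 0.53 as deposited. Slc7a6, another light chain that pairs with Slc3a2 and exchanges cationic for neutral amino acids, was at 602 on the activated array and 276 on the naive array (2.18-fold higher), although its other probe set gave a log2 ratio of 0.54.

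Carriers that need no heavy chain divided. Slc1a5, the glutamine and neutral amino acid exchanger ASCT2, was at 2457 on the activated array and 1140 on the naive array (2.16-fold higher). Slc7a1, the arginine and lysine carrier CAT1, was at 1472 in activated and 768 in naive cells (1.92-fold higher), and its other measured probe set gave a log2 ratio of 1.14. Both sodium-coupled carriers of the SLC38 family did not pass by their brightest probe sets. Slc38a1 was at 1419 and 1021 on the activated and naive arrays, a ratio of 1.39, just short of the minimum fold. Slc38a2, a carrier for small neutral amino acids that adapts to their supply, was at 1920 and 2085 on the activated and naive arrays, and its other measured probe set was lower in activated cells by the size rule (304 against 597). With the median over probe sets in place of the brightest, Slc38a2 was lower, at a log2 ratio of -0.55. Slc1a4, the exchanger ASCT1, lay under 100 on both arrays (89.5 in activated and 45.6 in naive cells), as did Slc7a11, the cystine and glutamate exchanger (15.3 in activated and 44.0 in naive cells), so no ratio was formed for them.

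Serine and asparagine synthesis had the highest median of the groups, at a log2 ratio of 2.05. All 4 members were higher in activated cells, against 23.7% of all measured genes. Phgdh, the first enzyme of serine synthesis, was at 4388 on the activated array and 1412 on the naive array (3.11-fold higher). Psat1, the transaminase of the next step, was at 3386 in activated and 616 in naive cells (5.49-fold higher). Psph, the phosphatase that releases serine, was at 1380 in activated and 716 in naive cells (1.93-fold higher). The last step therefore had the smallest ratio of the 3, although it rested on 1 probe set. The other 3 probe sets of Phgdh gave log2 ratios down to 1.47, and the other probe set of Psat1 gave 2.86. A pair of probe sets that Phgdh shares with pseudogenes was left out of the counts, and gave 1.58 and 1.74. Because such copies exist, the values of Phgdh are uncertain as to the gene. Asns was at 1040 on the activated array and 29.1 on the naive array, at least 10.4-fold higher. Its probe sets gave log2 lower bounds of 3.38 and 3.37, so that both placed naive cells under 100.

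The enzymes of glutamate, branched-chain amino acids and proline were higher for 4 of 6 measured members (66.7%, against 23.7% of all measured genes). The median log2 ratio of the 6 was 1.05. Got1, the cytosolic aspartate transaminase, was at 1103 on the activated array and 360 on the naive array (3.07-fold higher). Got2, its mitochondrial counterpart in the malate-aspartate shuttle, was at 2284 in activated and 920 in naive cells (2.48-fold higher), and a dim probe set of it gave a log2 ratio of -0.19. The transaminases of both compartments thus stood higher. Glud1, the mitochondrial glutamate dehydrogenase, was at 1654 and 1586 on the activated and naive arrays and did not pass.

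Bcat1, the cytosolic branched-chain transaminase, was at 759 on the activated array and 28.1 on the naive array, at least 7.59-fold higher. Its probe sets disagreed, with log2 ratios of 2.92, 1.75 and -0.47, and the median over them was 1.75. Bcat2, the mitochondrial branched-chain transaminase, was at 202 on the activated array and 116 on the naive array. That ratio of 1.74 exceeded the minimum fold, but the difference of 85.9 fell short of 100, so Bcat2 did not pass. Aldh18a1, which starts proline synthesis from glutamate, was at 946 in activated and 601 in naive cells (1.58-fold higher), and its 4 measured probe sets lay between 0.58 and 0.79 on the log2 scale.

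Of the 3 ATF4 genes, only Atf4 passed the size rule (33.3% higher, against 23.7% of all measured genes). It was at 1844 on the activated array and 1204 on the naive array (1.53-fold higher), with a log2 ratio of 0.64 from the other measured probe set. Chac1, a glutathione-degrading enzyme that Atf4 induces under stress, was at 220 in activated and 225 in naive cells. Trib3, a pseudokinase that restrains Atf4, was at 167 and 122 on the activated and naive arrays. Neither of these targets passed, whereas Asns, another target of Atf4, was at least 10.4-fold higher.

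Other genes of the integrated stress response, which runs through Atf4, included genes of either direction at shares no larger than those of all genes. Of 11 measured genes outside the members, 2 were higher (18.2%, against 23.7% of all measured genes) and 1 was lower (against 20.6%), with a median log2 ratio of 0.36. Atf3, a transcription factor downstream of Atf4, was at 451 on the activated array and 9.97 on the naive array (at least 4.51-fold higher). Eif2ak4, the sensor kinase for uncharged tRNA, was at 193 in activated and 88.2 in naive cells (at least 1.93-fold higher). Ddit3, the transcription factor CHOP, was at 159 on the activated array and 486 on the naive array (3.06-fold lower). Eif2ak3, the endoplasmic reticulum stress kinase, was at 373 and 341 on the activated and naive arrays, and Cebpg, a partner of Atf4, at 570 in activated and 486 in naive cells.

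**Figure D2:**
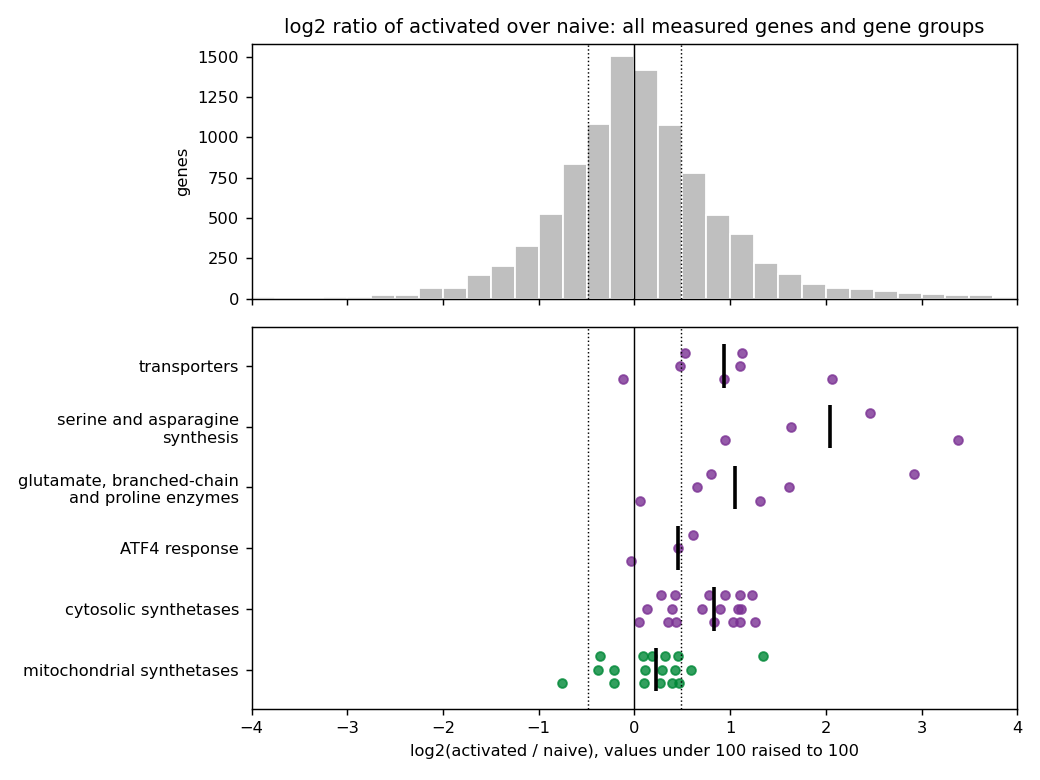
Upper panel: number of genes by log2 ratio of activated over naive for all 9842 measured genes (the axis is cut at -4 and 4). Lower panel: 1 point for each measured gene of a group, with its median as a black bar, from 2.05 for serine and asparagine synthesis to 0.23 for mitochondrial synthetases. That last group includes amidotransferase genes, and dotted lines mark 1.4-fold.

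All 19 cytosolic synthetases with a probe set were measured on both arrays. Their log2 ratios were above 0 for all 19, as were those of 4988 of all 9842 measured genes. By the size rule 12 were higher in activated cells (63.2%, against 23.7% of all measured genes). The median ratio was 1.78-fold. The ratios ranged from 1.04-fold to 2.40-fold, with a standard deviation of 0.39 between genes on the log2 scale, and 0.39 was also the standard deviation between probe sets of the same gene over 3404 genes of the array. The synthetases therefore differed among themselves by about as much as probe sets of 1 gene differ.

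Yars, which charges tyrosine, was at 646 on the activated array and 269 on the naive array (2.40-fold higher). Aars, for alanine, was at 759 in activated and 325 in naive cells (2.34-fold higher). Hars, for histidine, was at 2298 in activated and 1059 in naive cells (2.17-fold higher). These had the highest ratios of the group. A probe set that Aars shares with Exosc6 gave a log2 ratio of 0.75 and was left out of the counts. Tars, for threonine, was at 1216 on the activated array and 565 on the naive array (2.15-fold higher). Gars, whose gene serves both cytosol and mitochondrion, was at 2194 in activated and 1019 in naive cells (2.15-fold higher). Iars, for isoleucine, was at 1566 in activated and 741 in naive cells (2.11-fold higher), and Rars, for arginine, at 1982 in activated and 973 in naive cells (2.04-fold higher). These 7 synthetases were the ones that differed at least 2-fold.

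The next 5 of the 19 synthetases lay between 1.63-fold and 1.92-fold. Mars, for methionine, which is also the residue that starts every protein, was at 1211 on the activated array and 630 on the naive array. Cars, for cysteine, was at 473 in activated and 254 in naive cells, and Vars, for valine, at 762 in activated and 427 in naive cells. Kars, the lysine enzyme of both compartments, was at 2188 and 1274 on the activated and naive arrays. Eprs, a single protein that charges both glutamate and proline, was at 1342 in activated and 824 in naive cells, and its 3 measured probe sets lay between 0.70 and 0.82 on the log2 scale. All 5 passed the size rule.

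The remaining 7 did not pass by their brightest probe set. Qars, for glutamine, was at 1755 on the activated array and 1694 on the naive array, and its 4 probe sets gave log2 ratios from -0.40 to 0.15. Sars, for serine, was at 1484 and 1359 on the activated and naive arrays, with 0.23 from the other probe set. Glutamine and serine are thus amino acids whose synthetase genes were nearly level between the arrays. Farsa, the catalytic subunit of the phenylalanine enzyme, was at 722 in activated and 597 in naive cells, and Farsb, its other subunit, at 1818 in activated and 1347 in naive cells. Lars, for leucine, was at 882 in activated and 658 in naive cells. Nars, for asparagine, was at 1905 and 1454 on the activated and naive arrays, and Wars, for tryptophan, which interferon also induces, at 567 in activated and 446 in naive cells. With the median over probe sets Farsb, Nars and Wars passed as well, since other probe sets of these genes gave log2 ratios of up to 0.65, 0.88 and 0.76.

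**Figure D3:**
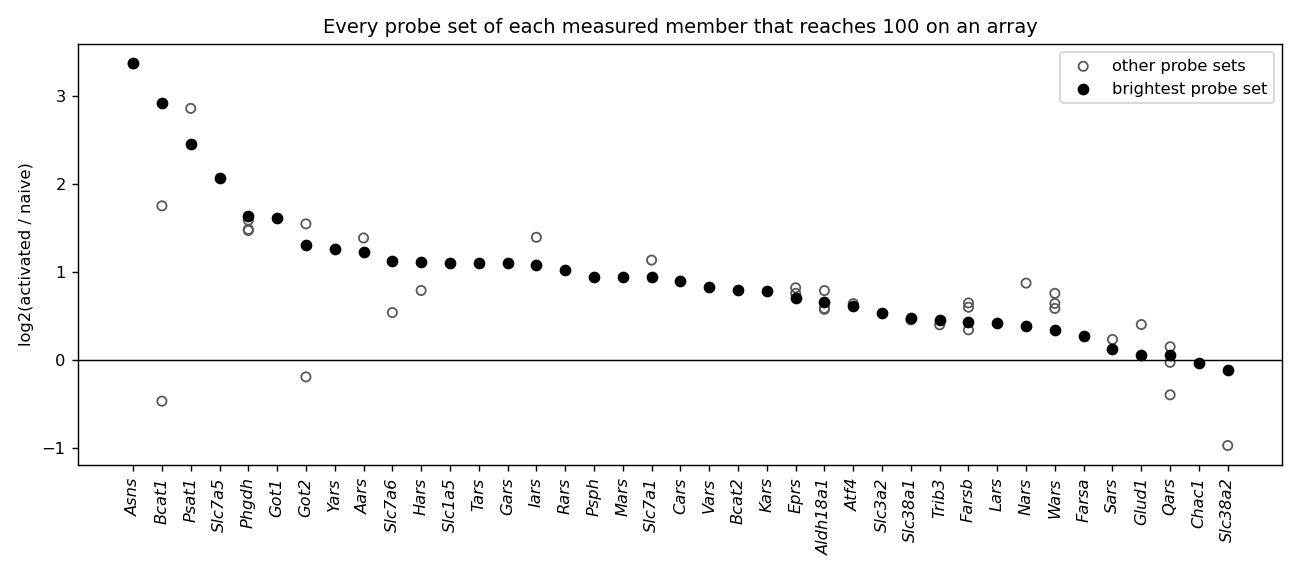
Log2 ratio of activated over naive for each probe set that reaches 100 on an array, for the 39 measured members in order of their brightest probe set (filled), with other probe sets as open circles. Bcat1, Got2 and Qars have probe sets on both sides of 0.

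Across the members, 22 genes had more than 1 probe set reaching 100. The standard deviation between probe sets of a member was 0.42 on the log2 scale. No member was called higher by a probe set and lower by another, while 3 members had probe sets of both signs. Of 74 member probe sets that reached 100, 50 were higher in activated cells by the size rule, against 23.2% of all such probe sets naming 1 gene, and 1 was lower, against 19.2%.

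Some synthetases sit in a large multi-synthetase complex. The 7 measured catalytic members of this complex (Eprs, Iars, Kars, Lars, Mars, Qars and Rars) had a median log2 ratio of 0.78 and included both Qars and Rars. The 12 outside it had a median of 0.87. Membership in the complex thus did not separate high from low ratios. Among its scaffold proteins, Eef1e1 was at 1831 on the activated array and 831 on the naive array (2.20-fold higher), Aimp2 at 1789 in activated and 993 in naive cells (1.80-fold higher) and Aimp1 at 1644 in activated and 1436 in naive cells, which did not pass. Xpot, the export receptor that carries tRNA out of the nucleus, was at 1539 in activated and 777 in naive cells (1.98-fold higher).

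The mitochondrial synthetases served as the nearest comparison, since they do the same chemistry for another compartment. Genes of the mitochondrial glutamyl-tRNA amidotransferase, which is not a synthetase, were counted with them. The size rule called 12 of the 19 cytosolic synthetases higher (63.2%), against 2 of 18 measured mitochondrial genes (11.1%) and 23.7% of all measured genes. Several mitochondrial genes were dim, such as Aars2 (133 in activated and 101 in naive cells), where a difference above 100 is harder to reach. With a difference minimum of 50, 2 mitochondrial genes were still higher. The median log2 ratio was 0.83 for the cytosolic and 0.23 for the mitochondrial genes. None of either kind was lower, against 20.6% of all measured genes. Yars2 was at 544 on the activated array and 215 on the naive array (2.53-fold higher), and Lars2 at 395 in activated and 261 in naive cells (1.51-fold higher). The other measured probe set of Lars2 gave a log2 ratio of 0.12, and with the median over probe sets, a fold minimum of 2 or a difference minimum of 200 Lars2 did not pass. Cars2 (224 in activated and 210 in naive cells) lay nearest to no difference among those at 100 or more on both arrays, and Mars2 was at 107 in activated and 74.8 in naive cells. Of the 18 mitochondrial genes, 3 had a value under 100, Ears2 on the activated array (89.1) and Mars2 (74.8) and Sars2 (77.4) on the naive array, so that their ratios are bounds. Where both enzymes of 1 amino acid were at 100 or more on both arrays, the cytosolic log2 ratio exceeded the mitochondrial one in 9 of 12 pairs, by a median of 0.68 over these pairs. The widest gaps among them were 1.48 for histidine and 1.32 for threonine. In the other direction, the cytosolic minus mitochondrial difference was -0.17 for leucine and -0.08 for tyrosine, where both enzymes were higher in activated cells. For the pairs with a bound, the difference was at least 1.46 for glutamate, at most 0.84 for methionine and at most -0.34 for serine. With 1 array in each group this contrast between compartments has no test.

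**Figure D4:**
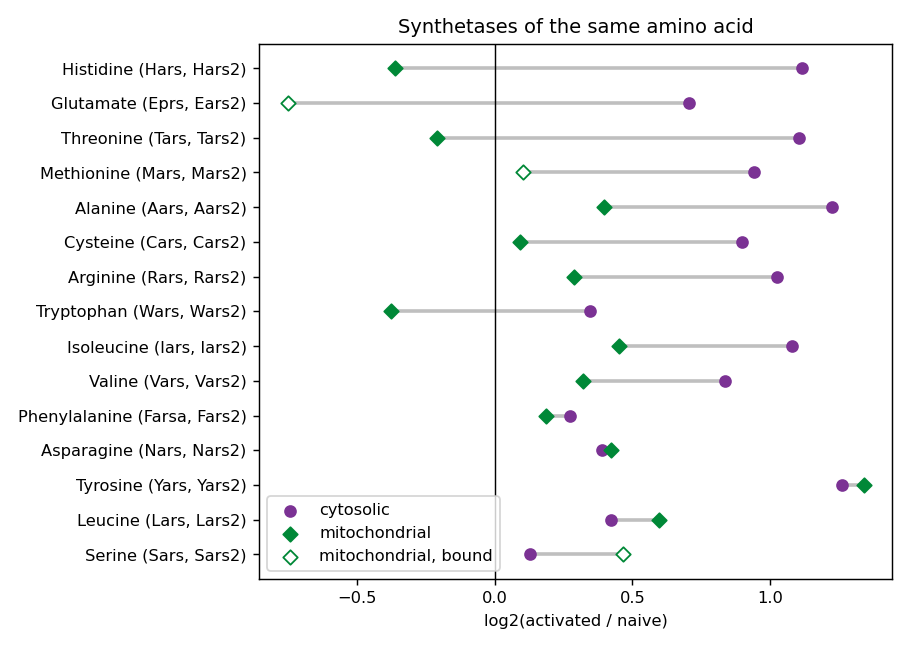
Log2 ratio of activated over naive for the cytosolic (circles) and mitochondrial (diamonds, hollow where the ratio is a bound) synthetase of each of 15 amino acids, ordered by the gap between them. Among the 12 pairs without a bound the cytosolic point lies to the right in 9, and leucine, tyrosine and asparagine go the other way.

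Windows of 11 measured cytosolic synthetases were searched. The 4 that held TGATGNAA (Gars, Iars, Tars and Yars) had log2 ratios from 1.08 to 1.26, all past the size rule. The 7 without it (Eprs, Farsa, Farsb, Kars, Mars, Qars and Sars) had ratios from 0.05 to 0.94. Of these 7, 3 passed as higher, against 23.7% of all measured genes. The ranges did not overlap, but the gap of 0.14 between Iars (1.08) and Mars (0.94) was smaller than the standard deviation of 0.39 between probe sets of 1 gene. The other 8 measured synthetases (Aars, Cars, Hars, Lars, Nars, Rars, Vars and Wars) took no part in this comparison, although Aars (1.22), Hars (1.12) and Rars (1.03) had log2 ratios in or near the range of those with the letters. The mitochondrial group of synthetases and amidotransferase genes held no match in any of 16 genes searched, against 4.51% of all genes searched. At that share a set of this size can easily hold none, so no contrast is drawn from it.

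Among the other members the motif did not go with the ratio. Asns (3.38) and Got1 (1.62) held it and were high, but Trib3 (0.45) and Chac1 (-0.03) held it and did not pass. Slc1a4 and Slc7a11, both under 100 on the 2 arrays, held it too, Slc7a11 on each strand, as did Pycr1, which has no intensity here. Psat1 (2.46), Bcat1 (2.92) and Phgdh (1.64) had high log2 ratios and no match. Over all measured genes searched, a match was present in 2.72% of those higher in activated cells, 3.24% of those lower and 2.45% of those that did not pass. Several members are textbook targets of ATF4, so their share of 34.4% is not independent of how the genes came to be grouped. The letters CACGTG, the E-box that MYC binds with MAX, were found in 4 of 32 members (Aldh18a1, Farsb, Iars and Tars; 12.5%), against 8.09% of all genes searched and 12.03% of the measured ones. No match of one motif overlapped a match of the other in the members.

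**Figure D5:**
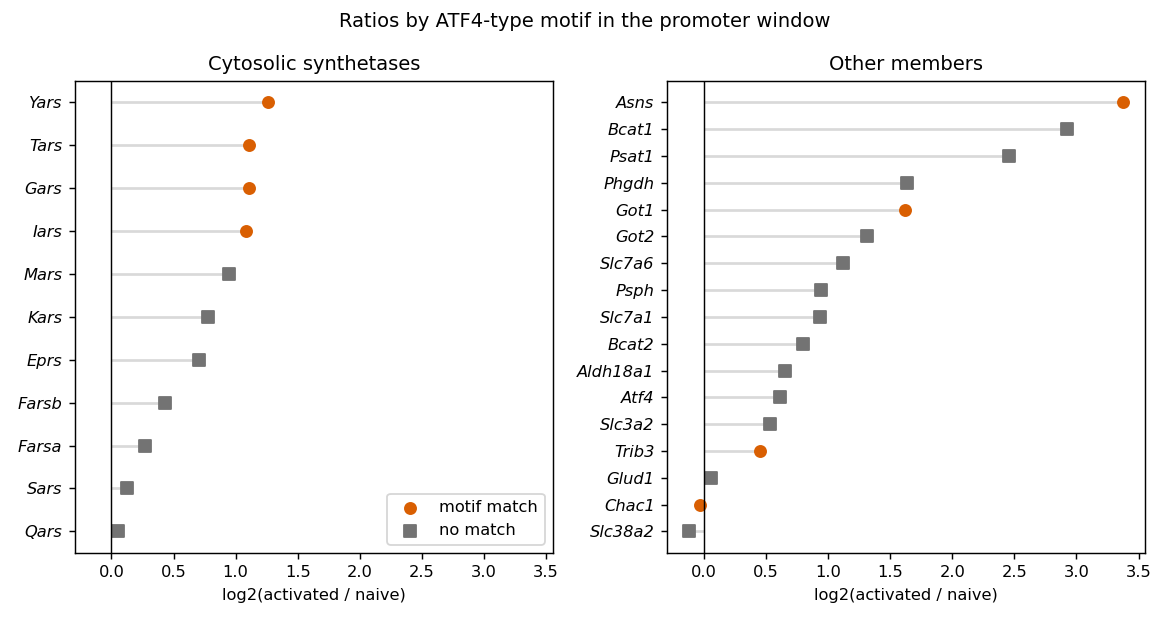
Log2 ratio of activated over naive for the measured members whose promoter window was searched, 11 cytosolic synthetases on the left and 17 other members on the right, as orange circles where the window holds TGATGNAA and grey squares where it does not. The 4 synthetases with a match lie above the other 7 by a gap of 0.14, while the other members are mixed.

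Neighbouring pathways differed in how far they went along with the members. In one-carbon metabolism, which takes up serine carbon, 9 of 11 measured genes were higher (81.8%, against 23.7% of all measured genes). Another 1 was lower (against 20.6%), and the median log2 ratio was 1.08. Shmt1, which moves a carbon from serine to folate in the cytosol, was at 1001 on the activated array and 176 on the naive array (5.67-fold higher). Its 4 probe sets were all higher, with log2 ratios from 1.26 to 2.50, the last from the brightest. Ahcy, which clears S-adenosylhomocysteine, was at 3760 in activated and 1120 in naive cells (3.36-fold higher), Gcsh of the glycine cleavage system at 1176 in activated and 453 in naive cells (2.59-fold higher), and the mitochondrial folate enzyme Mthfd2 at 1421 in activated and 616 in naive cells (2.31-fold higher). Mat2b, a regulatory subunit of methionine adenosyltransferase, was the lower one, at 939 in activated and 1467 in naive cells, and was named after its value was seen. Mtr, methionine synthase, was at 377 in activated and 263 in naive cells (1.43-fold higher), just past the minimum fold. The other measured probe set of Mtr gave a log2 ratio of 0.19 and did not pass. Aldh1l2 was at 129 in activated and 92.4 in naive cells and did not pass.

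Amino acid carriers outside the members had a median log2 ratio of 0.04. Of 18 measured genes, 3 were higher (16.7%, against 23.7% of all measured genes) and 1 was lower (against 20.6%). Slc43a2, a facilitated carrier of large neutral amino acids that shares leucine with LAT1, was at 177 on the activated array and 593 on the naive array (3.34-fold lower). Slc25a13, the mitochondrial aspartate and glutamate carrier citrin, was at 328 in activated and 16.8 in naive cells (at least 3.28-fold higher). Slc36a4 was at 205 in activated and 94.2 in naive cells (at least 2.05-fold higher), and the aromatic amino acid carrier Slc16a10 at 189 in activated and 49.1 in naive cells (at least 1.89-fold higher). Slc7a7 (93.9 in activated and 101 in naive cells) and Slc7a3 (102 in activated and 19.7 in naive cells) stood at about 100 on at least 1 array.

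Of 12 other measured amino acid enzymes, 4 were higher (33.3%, against 23.7% of all measured genes) and 1 was lower (against 20.6%). The median log2 ratio of the 12 was 0.13. Cth, which makes cysteine from cystathionine, was at 301 on the activated array and at the lowest deposited value of 1 on the naive array (at least 3.01-fold higher). Pycr3, a pyrroline carboxylate reductase of proline synthesis, was at 271 in activated and 129 in naive cells (2.10-fold higher), Asl of arginine synthesis at 395 in activated and 259 in naive cells (1.53-fold higher), and Bckdk, the kinase that holds back branched-chain oxidation, at 406 in activated and 278 in naive cells (1.46-fold higher). Glul, glutamine synthetase, was the lower one, at 637 on the activated array and 902 on the naive array by its brightest probe set, and was named after its value was seen. The other probe set of Glul gave a log2 ratio of 0.58, so that its probe sets disagreed in sign. Gpt (228 in activated and 230 in naive cells) and Ass1 (117 in activated and 133 in naive cells) lay nearest to no difference.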

How the data were processed

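Per the series' design text, the authors modelled 1 intensity per probe set from perfect-match minus mismatch signals in dChip (no version stated) and normalized both arrays by its invariant set method. Intensities were deposited on a linear scale. Present calls, made in GCOS 1.3 per the submitters' processing notes, were not used. The design text's 1.4-fold minimum and difference of 100 were kept, without its confidence bound and present call.

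Of 45037 probe sets other than 64 controls, 34945 had 1 gene symbol in the platform's annotation, 932 several and 9160 none. Only those with 1 symbol named a gene. Entrez identifiers of all 41 members with a probe set matched the RefSeq gene table. No build is named with the values, so coordinates are given only for RefSeq promoter windows. The promoter window of 1 member is not reported here and was left out of all promoter counts. The members and all lists were chosen with earlier results of these data known. All members are named. Each other list contributes up to 4 of its largest differences that passed, and the 2 measured genes closest to a ratio of 1. Mat2b, Glul, Aars2, Ears2 and Sars2 were named outside this rule, after their values were seen. Alternatives covered the fold, difference and floor, 3 rescalings and the median over probe sets. Ratios and counts were computed in Python 3.11.15 with pandas 2.3.3 and statsmodels 0.14.6 (loess). The size rule was checked on simulated data with low noise and planted differences well past the minimum fold. That check does not bear on calls near the rule.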

Additional observations from a re-analysis of the deposited data

How the results depend on the processing

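Every member group kept the sign of its median log2 ratio under floors of 50 and 200, median scaling, quantile normalization, a loess correction and the median over probe sets. The median of the members lay between 0.83 and 0.92 and that of the cytosolic synthetases between 0.74 and 0.83. With a fold minimum of 2, 16 members were higher, among them 7 cytosolic synthetases, 3 transporters and 0 ATF4 genes, and 1 mitochondrial synthetase was higher. The counts over all genes fell with it to 1193 higher and 904 lower, against 2334 and 2027 at 1.4-fold. With a difference minimum of 50, 1 mitochondrial synthetase was lower, and with 200, 1 was higher. With the median over probe sets, 1 member was lower, a transporter (Slc38a2), and 1 mitochondrial synthetase was higher. The lower bound for Asns was 4.38 on the log2 scale with a floor of 50 and 2.38 with a floor of 200, which follows from the floor itself. The gap between synthetases with and without TGATGNAA was 0.14 with quantile normalization, 0.16 with the loess correction and 0.16 with the median over probe sets. These were chosen for it after its value was seen, and the floors and median scaling leave it as it is by construction. No paired analysis was possible because each group has 1 array. Without replicates, the spread between arrays is not known, so no difference, near 1.4-fold or larger, can be told from it. Probe sets near 100 carry little information.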
